A study of Mus musculus with 12 samples.

Results

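The mature ducts of the pubertal mouse mammary gland were compared with the fat pad that the ductal tree has not yet reached. The comparison rested on 6 of the 12 arrays of the series, those whose Cy5 channel held total RNA of microdissected ducts. The Cy3 channel of each held RNA of distal stroma without epithelium. The arrays were chosen by that label alone, and no measured value entered the choice. Duct and stroma came from glands of mice aged 5 weeks that carried B-actin-GFP, a green fluorescent protein under the beta-actin promoter. That promoter is active in most cell types, and the design text says that the reporter served to make the gland visible during dissection. The labels name no other allele, no strain, no treatment and no number of animals. The other 6 arrays held terminal end buds, the growing tips of the ducts, against stroma of the same description, and enter only where they are named.

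A mammary duct is a tube of inner luminal cells, which carry Krt8 and Krt18, and an outer layer of contractile myoepithelial cells, which carry Krt5 and Krt14. The tube lies on a basement membrane inside a sleeve of collagen and fibroblasts, and the fat pad around it holds adipocytes, vessels and immune cells. Milk protein genes are controlled by prolactin through the transcription factor STAT5 and reach their full output in lactation. In puberty the terminal end buds lead the growth of the tree, and the ducts behind them have slowed their divisions.

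Every value below is a log2 ratio of duct over stroma for 1 probe, so 0 means equal signal and 1 means a 2-fold excess in duct. The sources used here do not state the base of the logarithm. With natural logarithms no sign, order or p-value of a test against 0 would change, but sizes, folds and every count with a minimum fold would. The 4 markers of a mature duct were all above stroma on 6 of 6 arrays: Csn3 at 6.25, Csn1s1 at 5.71, Acta2 at 3.24 and Krt14 at 2.79. Their means on the terminal end bud arrays were above stroma too, so this excess alone does not tell duct from tip. In the test of duct minus terminal end bud described below, Csn3, Csn1s1 and Krt14 were higher in duct and Acta2 did not pass. In pieces of tissue, fewer cells of a type and less RNA per cell cannot be told apart.

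Of 17589 probes tested with limma, 2861 were higher in duct (16.3%) and 2167 were lower (12.3%) at a Benjamini-Hochberg adjusted p under 0.05. At a size of at least 2-fold, 318 were higher (1.81%) and 106 were lower (0.603%), a split that was 436 to 283 after quantile normalization. Of the 424 probes called as deposited, 423 had the same sign on all 6 arrays. Having been picked by p-value and size on these arrays, they were likely to share a sign from the start. Read as genes, 2251 of 12913 were higher (17.4%) and 1725 were lower (13.4%), and the median over all genes was 0.01. These shares are the background against which the counts of gene lists below are to be read. Of the 80 counts of higher or lower genes in 40 lists, 24 moved by over 1.5 times when 1 array was left out, and 23 of these were counts of 7 genes or fewer. Stroma was hybridised in the reference channel of every array. The labels do not say whether it was 1 pool or a separate sample for each array. How far its variation between glands enters the test is therefore not known. With no array dye-swapped, any probe that favours 1 dye keeps that bias in its ratio. Separate animals are not stated for the arrays, so the p-values cover array-to-array spread that may be technical. Pairs of duct arrays correlated across probes with r between 0.6 and 0.821 (median 0.721 over 15 pairs), and duct replicate 4 was the array least like the mean of the others (r = 0.708).

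Csn3 and Csn1s1 had the highest means among called genes with the same sign on all arrays. The probe assigned to Tada1, at 5.13, and the keratins Krt18 and Krt8 came next, ahead of Csn1s2a. Csn3 encodes kappa-casein, which coats the casein micelle. It ranged from 5.53 to 6.67 over the 6 duct arrays, with a median of 6.34. Its mean of 6.25 (SE 0.13) is a 76.0-fold excess in duct (limma, Benjamini-Hochberg adjusted p = 6.02e-08). A second Csn3 probe gave 0.67 (adjusted p = 0.00289 by limma), so the size depends on the probe while the direction does not. Csn1s1, alpha-S1 casein, ranged from 4.61 to 6.87 with a median of 5.72. Its mean was 5.71 (SE 0.27), 52.4-fold, and duct replicates 1 and 4 were the high arrays. Csn1s2a, another calcium-sensitive casein, ranged from 3.43 on duct replicate 6 to 5.95 on duct replicate 1, with a median of 5.01 and a mean of 4.85 (SE 0.28, adjusted p = 1.05e-05 by limma).

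Alpha-lactalbumin, the regulatory subunit of lactose synthase, is encoded by Lalba. Its arrays ran from 2.06 to 4.64 with a median of 3.14, and its mean of 3.29 (SE 0.33, limma adjusted p = 0.000165) was 9.75-fold. Replicates 1 and 5 were the high arrays and replicate 6 the lowest. Btn1a1, butyrophilin of the milk fat globule membrane, was tighter, from 2.23 to 3.09 with a mean of 2.68 (SE 0.11). Mfge8, a second protein of that membrane, was at 2.67. Ltf, lactoferrin, was at 3.44 (SE 0.27), the membrane mucin Muc15 at 4.19, the small secreted protein Wfdc18 at 3.87, transferrin (Trf) at 2.03 and the folate receptor Folr1 at 1.83. All of these genes were above stroma on 6 of 6 arrays.

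Wap, the whey acidic protein, did not follow. Its arrays ran from -1.60 to 0.81 with a median of 0.18, and its mean was -0.03 (SE 0.26, limma adjusted p = 0.949). Replicate 4 was the low array and replicate 1 the high one, and the other 4 lay between 0.08 and 0.18. Only ratios were read, so for Wap equal expression and weak signal in both channels cannot be told apart. Csn1s2b, a casein gene of the same cluster as Csn1s2a, was at -0.17 (adjusted p = 0.365 by limma). Of 23 measured genes of milk and secretory differentiation, 13 were higher and 3 lower, with a median of 0.89. The lower genes included Fabp3 at -1.72 and Cidea at -1.38, which fat cells also use.

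The sequences before the starts of 3 raised milk genes and of Wap are shown. All 4 genes encode milk proteins, and the ratio of Wap parted from those of the others. Each line gives the last 150 bases before the annotated start from RefSeq on GRCm38.p6, on the gene's own strand: Csn1s1 at chr5:87666058-87666207 (plus strand), Csn1s2a at chr5:87774300-87774449 (plus strand), Lalba at chr15:98482684-98482833 (minus strand) and Wap at chr11:6638650-6638799 (minus strand). All lie upstream of the first exon. Capitals mark matches to TTCNNNGAA, the palindromic core bound by STAT factors, which reads the same on both strands.
Csn1s1: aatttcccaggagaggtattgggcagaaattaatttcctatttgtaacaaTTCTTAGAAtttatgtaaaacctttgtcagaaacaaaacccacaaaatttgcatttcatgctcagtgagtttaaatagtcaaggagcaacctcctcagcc
Csn1s2a: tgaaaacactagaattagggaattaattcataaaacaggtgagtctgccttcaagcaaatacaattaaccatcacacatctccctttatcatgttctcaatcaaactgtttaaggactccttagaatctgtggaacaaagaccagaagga
Lalba: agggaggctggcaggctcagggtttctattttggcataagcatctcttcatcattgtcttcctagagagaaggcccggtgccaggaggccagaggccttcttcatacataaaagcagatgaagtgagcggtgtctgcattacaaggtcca
Wap: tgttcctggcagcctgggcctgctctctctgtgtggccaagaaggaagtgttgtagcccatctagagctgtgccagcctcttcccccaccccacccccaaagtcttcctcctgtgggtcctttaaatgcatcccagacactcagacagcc
Csn1s1 held 1 match, from base -100 to base -92, and the other windows held 0. Among all 32851 windows of this length in the table, 1344 (4.09%) held the motif. Of 13 milk genes looked up, 8 were in the table, and Csn3 was not among them. A match is a description of letters, and a window without one says only that these letters are not in it. Among the regulators, Stat5b was at 0.11 and did not pass. Stat5a was at 0.34 (limma adjusted p = 0.0389), and without duct replicate 3 its adjusted p was 0.103.

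Luminal genes were higher in duct almost without exception. Of 29 measured, 27 were higher (93.1%) and 0 lower, with a median of 1.69 against 0.01 over all genes. Krt8, a keratin of simple epithelium, ranged from 4.53 to 5.34 with a median of 5.01 and a mean of 4.96 (SE 0.11, limma adjusted p = 1.09e-07). Its partner Krt18 ranged from 4.15 to 5.58 with a mean of 4.98 (SE 0.19). For both keratins, duct replicates 1 and 2 were lower than replicates 3, 4 and 6. The adhesion molecule Epcam ran from 3.74 to 4.89 with a median of 4.68 and a mean of 4.48 (SE 0.15), and again replicates 1 and 2 were the low arrays. Cd24a, a surface protein used to sort epithelium from stroma, was at 4.07 and Krt19 at 3.72. Krt7 was at 2.60, Rab25, a GTPase of apical recycling, at 2.85, Ly6d at 2.86 and Prom1 at 1.97. The list's 2 genes that did not pass were Grhl2 at 0.26 and Esr1 at -0.14.

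Many junction genes were higher in duct too. Of 27 genes of tight junctions and polarity, 17 were higher and 0 lower, with a median of 0.37. Cldn3, a claudin of the tight junction strand, ranged from 2.84 to 3.99 with a mean of 3.51 (SE 0.14). Lsr, which marks corners where 3 cells meet, was at 2.31 and the apical linker Ezr at 2.37, while Ocln was at 0.54 and Tjp1, also found in non-epithelial junctions, at 0.13 and did not pass. Of 27 genes of desmosomes and adherens junctions, 15 were higher and 2 lower (median 0.31). Perp was at 2.20, E-cadherin (Cdh1) at 1.69 and plakophilin Pkp3 at 1.43. The 2 lower genes were the cadherins Cdh5 of endothelium, at -0.45, and Cdh2 of neural and mesenchymal cells, at -0.47.

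**Figure D1:**
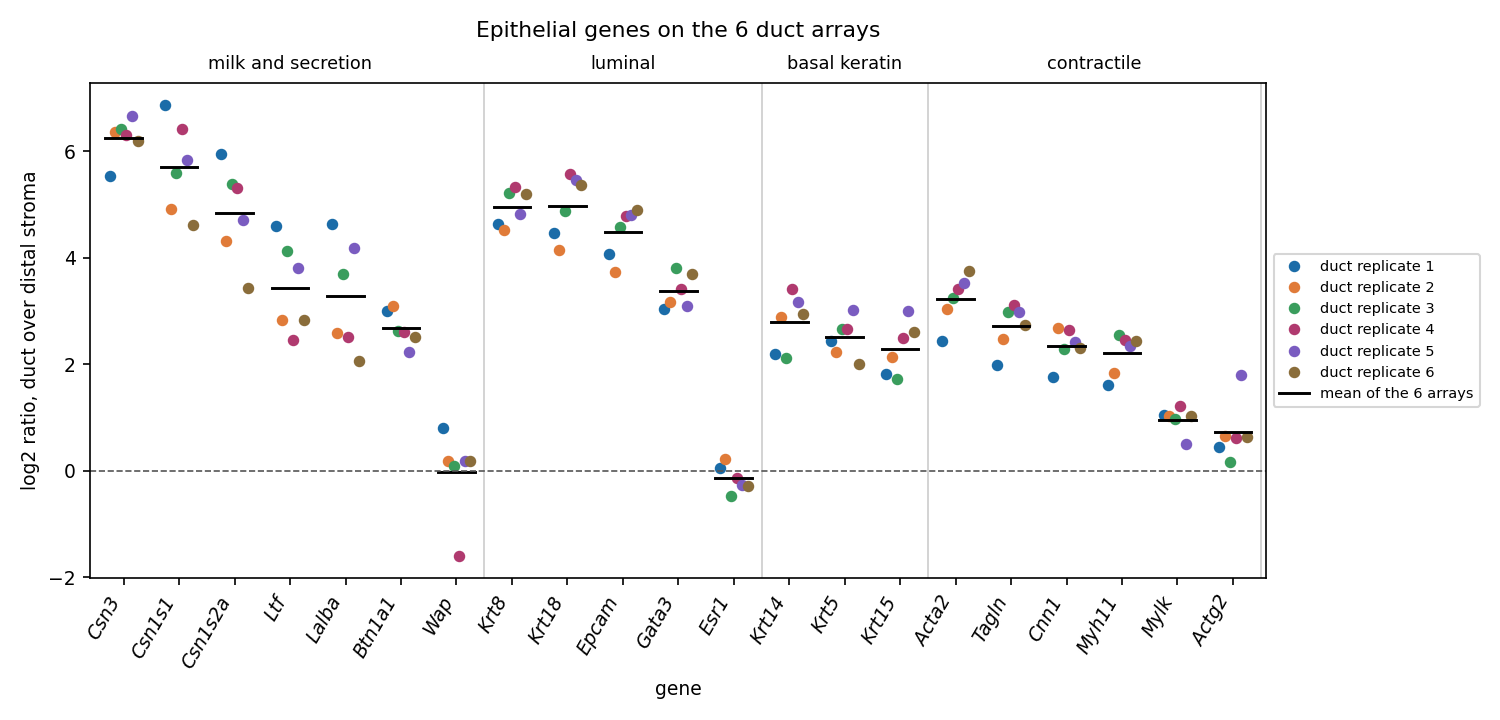
Log2 ratio of duct over distal stroma (vertical axis) for 21 genes in 4 groups (horizontal axis), with 1 coloured point for each of the 6 duct arrays and a black bar at their mean. Csn3 at 6.25 is the highest gene, Krt8 and Krt18 sit close to 5, Wap and Esr1 scatter around the dashed line at 0, and Actg2 at 0.72 is the lowest contractile gene.

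Myoepithelial genes formed a second, smaller block of epithelial excess. Of 24 basal keratin and identity genes, 19 were higher and 0 lower, with a median of 0.81. Krt14 ranged from 2.12 to 3.42 with a median of 2.91 and a mean of 2.79 (SE 0.17, limma adjusted p = 1.29e-05). Duct replicates 1 and 3, at 2.19 and 2.12, were the low arrays, and the other 4 were at 2.88 or more. Krt5, its partner in the basal layer, ran from 2.01 to 3.02 with a mean of 2.51 (SE 0.12). Krt17 was at 2.31, Krt15 at 2.29 and Trp63, the master regulator of basal cells, at 1.07. Sox10, a regulator of neural crest that mammary basal cells also use, was at 1.84, whereas Mbp, a myelin gene of Schwann cells, was at -0.12 and did not pass.

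The contractile apparatus was uneven. Of 28 smooth muscle genes, 16 were higher and 1 lower, with a median of 0.58. Acta2, smooth muscle alpha-actin, ranged from 2.43 to 3.75 with a median of 3.33 and a mean of 3.24 (SE 0.15, limma adjusted p = 3.14e-06). The lowest of its arrays was replicate 1. Tagln, an actin cross-linker, was at 2.72 and Cnn1, calponin, at 2.35, each lowest on the same array. Myh11, the smooth muscle myosin heavy chain, ran from 1.62 to 2.55 with a mean of 2.21 (SE 0.12), and its kinase Mylk was at 0.96. Actg2, the gamma actin of visceral smooth muscle, was only 0.72 (limma adjusted p = 0.0163), with replicate 5 at 1.80 and all other arrays at or below 0.66. On the 4 arrays numbered from 196 on, the call of Actg2 was lost (adjusted p = 0.0706). Tpm2 at 0.02 and Cald1 at 0.10 did not pass, although both bind actin filaments. Desmin (Des), an intermediate filament of vascular and skeletal muscle, was lower at -0.78.

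Transcription factors of the mammary lineage stood well above stroma. Of 74 developmental factors, 40 were higher and 5 lower (3 without duct replicate 1, 3 or 5), with a median of 0.37. Gata3, needed to keep luminal cells luminal, ranged from 3.03 to 3.81 with a mean of 3.37 (SE 0.11). Elf5, the factor of the milk-forming alveolar lineage, ranged more widely, from 1.78 on replicate 1 to 3.58 on replicate 4, with a mean of 2.73 (SE 0.22). Trps1 was at 2.70, Foxa1, which opens chromatin for the estrogen receptor, at 2.27 and Tfap2c at 1.82. Irx2, Irx3 and Irx5, homeobox genes of 1 family, were at 1.80, 1.52 and 1.51.

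Foxi1, the factor of ion-transporting cells in kidney and airway, ran from 0.40 to 2.64 with a median of 2.02 and a mean of 1.79 (SE 0.26, limma adjusted p = 0.00102). Replicate 2 was the low array and the other 5 were at 1.30 or more. Atp6v1b1, the proton pump subunit of such cells, ranged from 1.31 to 2.39 with a mean of 1.90 (SE 0.14). Cftr, a chloride channel of airway cells of that kind, was at -0.16 and did not pass. Myb, a factor of progenitor cells, was at 1.71.

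Hormone receptor genes split. Esr1, the estrogen receptor alpha, ran from -0.47 to 0.22 and had a mean of -0.14 (SE 0.09, limma adjusted p = 0.272), so no excess over stroma was seen. On the 4 arrays numbered from 196 on it was lower, at -0.29 (adjusted p = 0.0418). Pgr, the progesterone receptor, ranged from 0.14 to 1.47 with a mean of 0.79 (SE 0.17, limma adjusted p = 0.00792), low on replicates 3 and 4. Cited1, a cofactor of the estrogen receptor, was at 2.62 (SE 0.17) on arrays from 2.05 to 3.27. Of 25 hormone receptors and mediators, 11 were higher and 1 lower, with a median of 0.11. Cited1, Foxa1 and Pgr among the 11 also belong to the luminal list. Vdr, the vitamin D receptor, was at 0.96, but not called on the 2 arrays numbered up to 193 alone (adjusted p = 0.061).

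Several channels and carriers were well above stroma. Of 43 genes of ion and water transport, 19 were higher and 5 lower, with a median of 0.25. Fxyd3, a modulator of the sodium pump, ranged from 2.19 to 3.90 with a mean of 3.24 (SE 0.20). Aqp5, a water channel of secretory glands, was at 2.06 on arrays from 1.2 to 2.68. Slc12a2, the cotransporter that loads secretory cells with chloride, was at 2.05, the potassium channels Kcnk1 and Kcnn4 at 2.23 and 1.61, and Scnn1a, the alpha subunit of the epithelial sodium channel, at 1.55. Slc5a5, the carrier that brings iodide into milk, was at 1.74. In the other direction the bicarbonate carrier Slc4a4 was at -1.67, with replicate 2 at -2.72 and the other 5 arrays between -1.57 and -1.04. The carbonic anhydrase Car4 was at -0.66.

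Basement membrane genes, with those of its receptors, were higher in 26 of 36 cases and lower in 1, with a median of 0.46 (12 higher on the arrays numbered up to 193 alone). Col7a1, the anchoring fibril collagen of stratified epithelia, was at 2.17 (SE 0.09) on arrays from 1.93 to 2.50. Lama5 was at 1.69 and Lamb3 at 1.45, while Lama4, a laminin chain of vessel walls, was at -0.07 and did not pass. Itga6 and Itgb4, which pair as the laminin receptor of hemidesmosomes, were at 0.96 and 0.77. Of 32 membrane serine proteases and inhibitors, 20 were higher and 0 lower (median 0.34). St14, matriptase, ranged from 2.61 to 3.47 with a mean of 3.02 (SE 0.11), and Spint2, an inhibitor of that class of protease, from 3.09 to 3.94 with a mean of 3.54 (SE 0.11). Slpi, an inhibitor of leukocyte elastase, was at 2.46. The related inhibitor Spint1 was at 0.28 only, and its call was lost without duct replicate 1 or 3 (adjusted p of 0.062 and 0.0573).

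Signalling genes were higher more often than lower, and Fgfr2 and its ligand Fgf10 lay on opposite sides of 0. Fgfr2 ranged from 2.04 to 2.74 with a mean of 2.36 (SE 0.09, limma adjusted p = 1.01e-06), while Fgf10, its ligand made by fat pad stroma, was lower at -1.0 (SE 0.12) on arrays from -1.58 to -0.55. Of 31 genes of FGF, IGF and HGF signalling, 14 were higher and 1 lower (median 0.18). The IGF binding proteins Igfbp5 and Igfbp2 were at 1.60 and 1.14 and the receptor Igf1r at 0.62. Of 46 Wnt genes, 18 were higher and 2 lower (median 0.19). The ligand Wnt4, a target of progesterone in luminal cells, was at 1.71, Wnt5b at 1.12 and Wnt6 at 1.01. The secreted inhibitors Wif1 and Sfrp2 were at 1.78 and 1.76, so ligands and inhibitors of the pathway were raised side by side, with Ccnd1, cyclin D1, at 1.94 and Axin2, a common readout of the pathway, at 0.15 and not past the threshold.

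Of 46 genes of TGF-beta, activin and BMP signalling, 16 were higher and 0 lower (median 0.09). Tgfb3 ranged only from 2.07 to 2.65 with a mean of 2.41 (SE 0.08), whereas Tgfb1 at 0.05 and Tgfb2 at -0.14 did not pass. Inhbb, the beta-B subunit of activin, was at 2.08, and Inha, the alpha subunit of inhibin, at 0.63. Of 31 Notch genes, 13 were higher and 1 lower (median 0.17). The target gene Hey1 was at 1.32, the protease Adam10, which cuts the receptor, at 1.17 and the ligand Dll1 of basal cells at 0.86. Of 17 genes of the EGF family and its receptors, 4 were higher and 2 lower (median 0.07). Grb7, an adaptor of ErbB receptors, was at 0.90, and the ligand Nrg4 was at -0.79. Egfr at 0.33 did not pass.

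Secreted defence proteins were among the raised genes. Of 38 genes of mucosal defence and acute phase, 16 were higher and 6 lower, with a median of 0.07, and the 6 became 2 without duct replicate 1. Chil1, a chitinase-like lectin, ran from 1.34 to 3.52 with a mean of 2.35 (SE 0.25). Clu, the chaperone clusterin, was at 2.35 (SE 0.13) on arrays from 1.85 to 2.86. Cxcl15, a chemokine, was at 1.81 and Wfdc2 at 1.27. Pigr, which carries antibodies into milk, was at 0.14 and did not pass. Haptoglobin (Hp), made by fat cells as well as liver, was lower at -0.51. Apod, a carrier of small lipids, ranged from 2.31 to 4.04 with a mean of 3.03 (SE 0.19, limma adjusted p = 1.72e-05), and Ttr, which carries thyroid hormone and retinol, from 1.14 to 3.01 with a mean of 1.92 (SE 0.21).

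Genes of protein synthesis were raised broadly. Of 58 cytosolic ribosomal protein genes, 43 were higher and 1 lower, with a median of 0.84, the third highest of the 40 list medians. Rpl13a was at 1.92 on arrays from 0.98 to 2.83, with replicate 2 the highest and replicate 4 the lowest, and Rps6 was at 1.76. The list median lay between 0.61 and 1.0 on single arrays. Ribosomal protein genes have many near-identical copies, so these values are uncertain as to the gene. Of 61 genes of protein secretion and glycosylation, 28 were higher and 5 lower (3 without duct replicate 6), with a median of 0.20. P4hb, a disulfide isomerase, was at 1.21, the vesicle protein Tmed3 at 1.43 and Xbp1, a regulator of secretory capacity, at 0.46. Galnt3, which starts mucin glycans, was at 1.42 by 1 probe and 0.26 by another.

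**Figure D2:**
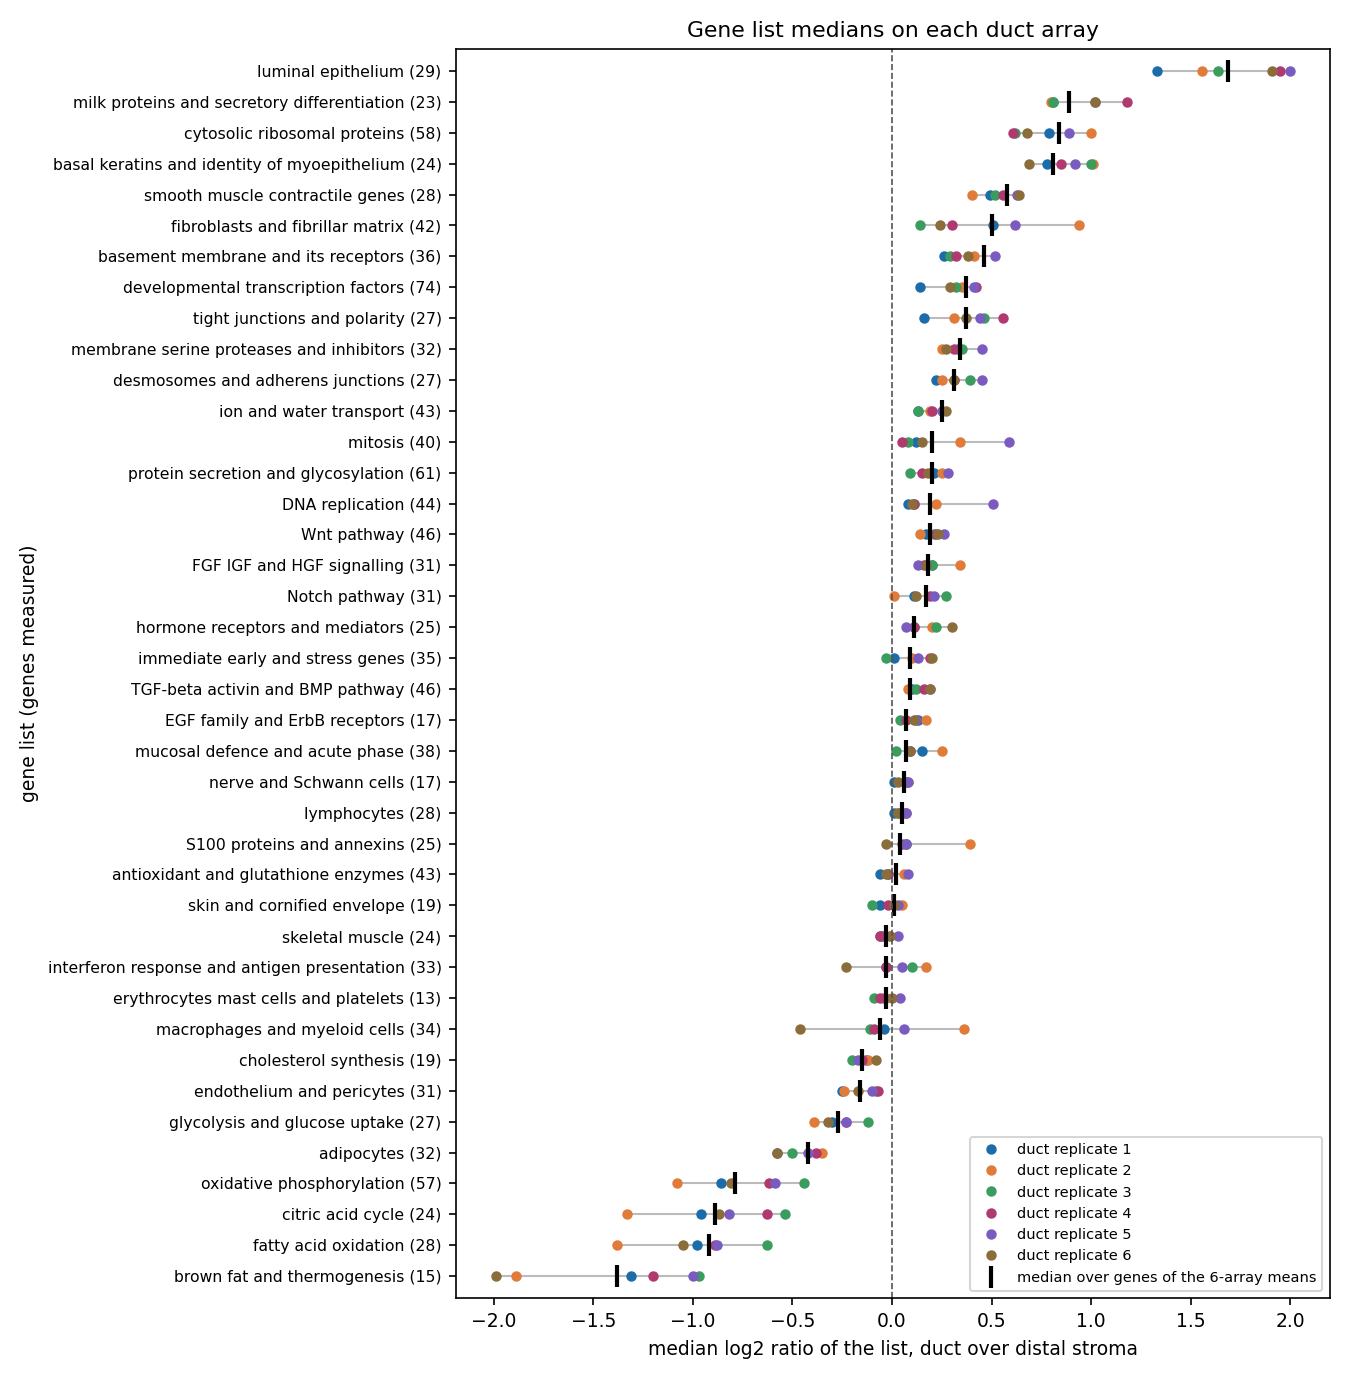
Median log2 ratio of duct over distal stroma (horizontal axis) for 40 gene lists (vertical axis, genes measured in brackets), with 1 coloured point for the median of the list on each of the 6 duct arrays and a black tick for the median over genes of the 6-array means. Luminal genes at 1.69 are at the top, brown fat genes at -1.38 at the bottom, and the fibroblast and macrophage lists spread most among the lists near the middle, from 0.14 to 0.94 and from -0.46 to 0.36.

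Genes of the fibrillar matrix were higher in duct than in the distal fat pad, although fibroblasts live in both. Of 42 genes, 27 were higher and 1 lower, with a median of 0.50. Postn, periostin, was at 1.5 (SE 0.12) on arrays from 0.95 to 1.93, Fn1, fibronectin, at 1.27 and the collagen Col3a1 at 1.04. Col1a1 ran from 0.16 to 1.60 with a mean of 0.77 (SE 0.16, limma adjusted p = 0.00668), yet Col1a2, whose product joins that of Col1a1 in type I collagen, was at -0.16 and did not pass. The matrix proteases Mmp3 and Mmp2 were at 1.13 and 1.02. The median of the list moved between arrays, from 0.14 on replicate 3 to 0.94 on replicate 2, and was 0.71 on the arrays numbered up to 193 and 0.33 on those from 196 on. The part of fibroblasts carried along with the ducts in these values was not tested.

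Other cell types could enter with the dissected ducts or be more common in the fat pad. Endothelial genes were lower in 11 of 31 cases and higher in 2 (median -0.16), and all 3 defining markers were lower, Pecam1 at -0.46, Cdh5 at -0.45 and Kdr at -0.62. Of 34 macrophage genes, 6 were higher and 3 lower (6 lower without duct replicate 2), with a median of -0.06. The markers Adgre1 at -0.16 and C1qa at -0.24 did not pass, and array medians ran from -0.46 to 0.36. Of 28 lymphocyte genes, 3 were higher and 1 lower (median 0.05), and Cd3e at 0.13, Cd79a at -0.14 and Ptprc at 0.08 did not pass. Skin markers Krt1 at 0.15, Krt10 at -0.14 and Lor at -0.24 did not pass, and neither did the muscle markers Acta1 at -0.05 and Ckm at 0.28. In those lists 1 of 19 skin genes and 1 of 24 muscle genes were higher, with medians of 0.01 and -0.03.

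Proteases of mast cells were higher in duct. Cpa3, carboxypeptidase A3, ranged from 0.64 to 1.69 with a median of 1.01 and a mean of 1.06 (SE 0.14, limma adjusted p = 0.00059), and Tpsb2, a tryptase, was at 0.77. The subunits of the mast cell's IgE receptor Ms4a2 at 0.01 and Fcer1a at -0.07 did not pass. Kit, a receptor of mast cells and also of luminal progenitors, was at 1.37 on arrays from 1.08 to 1.80. Of the 13 genes of erythrocytes, mast cells and platelets, 3 were higher and 1 lower (median -0.03).

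Genes of brown fat gave the lowest list median, at -1.38. Of 15 measured, 13 were lower and 0 higher. Ucp1, the uncoupling protein that makes heat, ran from -3.45 to -0.83 with a median of -1.62 and a mean of -1.82 (SE 0.30, limma adjusted p = 0.0023). Replicate 6 was far lower than replicates 4 and 5. Cpt1b, the muscle and brown fat form of the enzyme that brings fatty acids into mitochondria, ran from -2.62 to -1.40 with a mean of -2.05 (SE 0.14, limma adjusted p = 2.72e-05), the lowest of all genes with the same sign on every array. Cox8b was at -1.74, Cidea at -1.38 and Ppargc1a, the coactivator of mitochondrial genes, at -1.23. White fat genes were less far below 0: of 32 adipocyte genes 22 were lower and 1 higher, with a median of -0.42. Fabp4 was at -0.82 (SE 0.17) on arrays from -1.49 to -0.17 and was not called on the 4 arrays numbered from 196 on (adjusted p = 0.0531). Pparg, the master factor of fat cells, was at -1.02. Adipoq, the hormone adiponectin, was at only -0.21 (limma adjusted p = 0.0248), and its call was lost when replicate 2, 3, 4 or 5 was left out (adjusted p from 0.059 to 0.0643). Lipe, hormone-sensitive lipase, was at 0.08 and did not pass.

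Most genes measured in 3 lists of mitochondrial fuel use were lower in duct. In oxidative phosphorylation 46 of 57 genes were lower and 1 higher (median -0.79), in fatty acid oxidation 26 of 28 lower and 2 higher (median -0.92), and in the citric acid cycle 20 of 24 lower and 0 higher (median -0.89). Citrate synthase (Cs) was at -0.89, the dehydrogenase subunit Idh3a at -1.48 and the acyl-CoA dehydrogenases Acadm and Acadvl both at -1.62. The medians of these lists were more negative on the arrays numbered up to 193, at -1.05, -1.2 and -1.22, than on those from 196 on, at -0.63, -0.84 and -0.69. The 1 higher gene of oxidative phosphorylation was Atp5g1, a subunit of the ATP synthase, at 0.55. In fatty acid oxidation the higher genes were Cpt1a, the widely used form of the enzyme that Cpt1b encodes, at 0.59 (SE 0.05) and the thioesterase Acot1 at 1.22.

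Isoforms of the same step in glucose use parted ways. Aldoc, aldolase C, had the smallest SD among genes at least 4-fold from stroma. Its arrays lay between 3.72 and 4.11 and its mean was 3.90 (SE 0.06, limma adjusted p = 1.32e-08), 14.9-fold, while Aldoa, aldolase A, ran from -0.37 to 0.11 with a mean of -0.11 (adjusted p = 0.313 by limma). Hexokinase 1 (Hk1) was higher at 0.71 and hexokinase 2 (Hk2) lower at -0.83, with no overlap between the arrays of the 2 genes. The glucose carrier Slc2a1, present in most cells, was higher at 0.81 and the insulin-controlled carrier Slc2a4 of fat and muscle lower at -0.90. Cpt1a and Cpt1b divided in the same manner for fatty acids. Of 27 genes of glycolysis and glucose uptake, 4 were higher and 15 lower (median -0.27). Pkm, pyruvate kinase, was at -1.27 and Pygl, glycogen phosphorylase, at -1.16. Levels of different probes are not comparable, and each of these statements concerns the ratio of duct to stroma only.

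**Figure D3:**
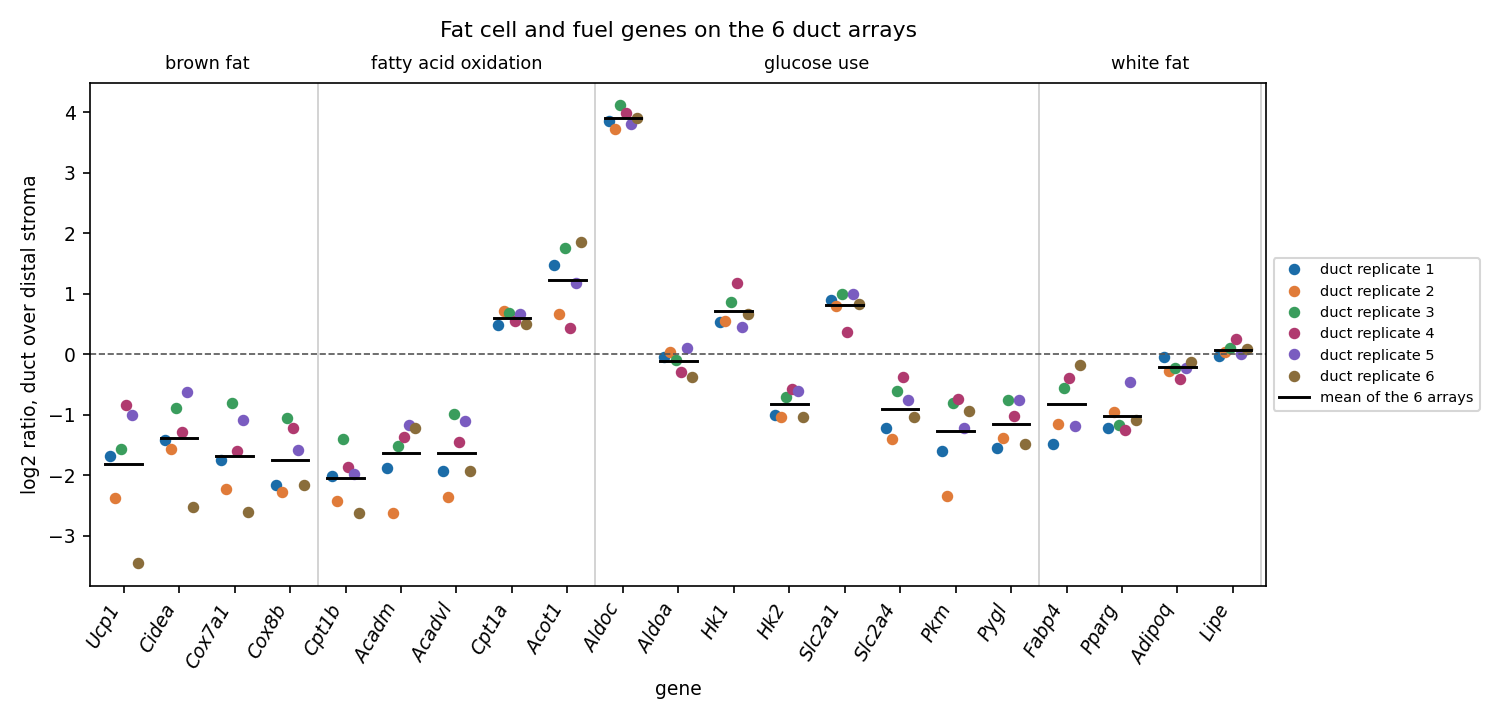
Log2 ratio of duct over distal stroma (vertical axis) for 21 genes of brown fat, fatty acid oxidation, glucose use and white fat (horizontal axis), with 1 coloured point for each of the 6 duct arrays and a black bar at their mean. Ucp1 and Cpt1b average -1.82 and -2.05, Aldoc stands alone at 3.90, and Hk1 and Slc2a1 lie above the dashed line at 0 while Hk2 and Slc2a4 lie below it.

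Cell division genes were only slightly above stroma. Of 40 mitosis genes, 12 were higher and 1 lower (median 0.20), and the 12 became 6 without duct replicate 2 and 6 without duct replicate 5. Of 44 DNA replication genes, 15 were higher and 3 lower (median 0.19). Mki67, a marker of cycling cells, ran from -0.03 to 1.57 with a mean of 0.50 (SE 0.21, limma adjusted p = 0.108), with replicates 2 and 5 at 0.98 and 1.57 and the others at 0.40 or less, and it passed on the arrays numbered up to 193 alone (0.69, adjusted p = 0.0214). Cdk1, the kinase of mitosis, was at 0.74, high on the same 2 arrays, and not called on the arrays numbered from 196 on (adjusted p = 0.107). Stmn1, a microtubule regulator, was at 1.04. Uhrf1, which maintains DNA methylation, and the cyclin Ccnb2 were lower, at -1.13 and -0.68.

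Duct and terminal end bud were set side by side to see where the duct differs from the structure it grows from. Both ratios use stroma of the same description, so only the difference of the ratios was tested, as duct minus terminal end bud over the 12 arrays. By limma 1832 probes were higher in duct (10.4%) and 1463 were lower (8.32%). Ratios were wider on the terminal end bud arrays, where the SD over probes ran from 0.535 to 0.635 against 0.38 to 0.484 in ducts. Scaling all arrays to a common spread was therefore added after seeing the data, and it changed some differences and list counts.

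Milk genes were among those that differed most. Csn1s2a was at 4.85 in duct and 0.89 in terminal end bud, a difference of 3.96 (SE 0.41, limma adjusted p = 2.33e-05), and no duct array overlapped a terminal end bud array. Csn1s1 differed by 2.78 (SE 0.32) and Btn1a1 by 1.96 (SE 0.13). Csn3 was at 6.25 and 4.38 (difference 1.87, SE 0.36), and Lalba differed by 2.09 (SE 0.49, limma adjusted p = 0.00811) with arrays that overlapped. Of the 23 milk genes, 13 were higher in duct and 2 lower, while the list medians were close, 0.89 in duct and 0.86 in terminal end bud. The 13 included Fabp3, with a difference of 1.24, and Cidea, with 0.85, which were below stroma in both structures. Wfdc18 was 1 of the 2 genes lower in duct than in terminal end bud, at 3.87 against 5.27. With arrays scaled to a common spread its difference was no longer called.

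Apod, at 3.03 in duct, was at -0.56 in terminal end bud, the second largest difference at 3.60 (SE 0.26, limma adjusted p = 1.83e-06). Ttr was at 1.92 and -0.35, and Chil1 at 2.35 and 0.16. These 3 secreted proteins were above stroma in duct and near or below it in the tips. Foxi1 was at 1.79 and 0.35 (difference 1.44, SE 0.30, limma adjusted p = 0.00349). The mast cell protease Cpa3 was at 1.06 and -0.30, a difference of 1.36 (SE 0.18).

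The difference from terminal end bud divided the contractile genes. Which cells of the dissected pieces carried it was not tested. Myh11 was at 2.21 in duct and 0.05 in terminal end bud (difference 2.16, SE 0.17, limma adjusted p = 3.2e-06), Mylk at 0.96 and -0.06, Cnn1 at 2.35 and 0.57 and Tagln at 2.72 and 1.44. Actg2 went the other way, at 0.72 and 2.66 (difference -1.94, SE 0.29, limma adjusted p = 0.000434). Acta2 was at 3.24 and 2.60, a difference of 0.64 (SE 0.26, limma adjusted p = 0.116) that passed the threshold with arrays scaled to a common spread. Of 28 contractile genes, 8 were higher in duct and 6 lower. The 6 became 3 with arrays scaled to a common spread and 3 after quantile normalization. Krt14 differed by 1.28 and Krt15 by 1.52, whereas Krt5 differed by -0.02 (SE 0.18, limma adjusted p = 0.967).

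Luminal keratins differed from terminal end bud in a way that changed under 1 of the scalings. Krt8 differed by -1.2 (SE 0.15, limma adjusted p = 9.92e-05) and Krt19 by -1.69. Both calls held under 9 of 10 alternatives, quantile normalization among them. With arrays scaled to a common spread neither call remained (Krt8 -0.14, Krt19 -0.77). Krt18 differed by -0.21 (SE 0.24) and Epcam by 0.05 (SE 0.31), neither past the threshold. Of 29 luminal genes, 1 was higher in duct and 4 were lower, and after quantile normalization 1 was higher and 3 were lower. With arrays scaled to a common spread 2 were higher and 0 lower, so the direction of this count changed under that scaling alone. Gata3 at -0.38 and Cited1 at -0.41 did not pass.

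Cell division genes were lower in duct: 0 of 40 mitosis genes were higher and 25 lower, and 2 of 44 replication genes were higher and 30 lower. The median of the mitosis list was 0.20 in duct and 0.98 in terminal end bud, and with arrays scaled to a common spread 20 of its genes were lower. Cdc20, which activates the ligase that ends mitosis, was at 0.38 and 2.51, the centromeric histone Cenpa at 0.20 and 2.19 and Cdk1 at 0.74 and 2.50. Etv5, an ETS factor that answers FGF signals, was at 0.63 and 2.37, and the Wnt agonist Rspo4 at -1.05 and 0.69. Sprr1a, a cornified envelope protein, had the largest negative difference, -2.88 (SE 0.26, limma adjusted p = 8.89e-06), at 0.77 and 3.66. Sprr2a1 was at 1.58 and 3.88, the protease inhibitor Timp1 at 0.51 and 2.77 and the chaperone Hspa8 at 0.01 and 1.89.

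Genes of the fat pad were less far below stroma in duct. Of 32 adipocyte genes, 19 were higher in duct than in terminal end bud and 0 lower, with list medians of -0.42 and -1.42. Of 31 endothelial genes, 19 were higher in duct and 0 lower, with medians of -0.16 and -0.77, and 11 were higher after quantile normalization. The adipocyte count was 16 with arrays scaled to a common spread and 5 after quantile normalization. For brown fat the 7 higher genes became 0 under either scaling. Cpt1b differed by 1.17 (SE 0.22, limma adjusted p = 0.00212), but by -0.04 after quantile normalization (adjusted p = 0.946), and the call of Ucp1 was lost under both. Whether duct and tip differ in brown fat genes beyond the narrower spread of the duct arrays cannot be told apart here. Sema3c at 0.06 and -2.22, Ogn at -0.10 and -2.33 and Tmed5 at -0.86 and -2.89 completed the 10 genes most above terminal end bud.

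**Figure D4:**
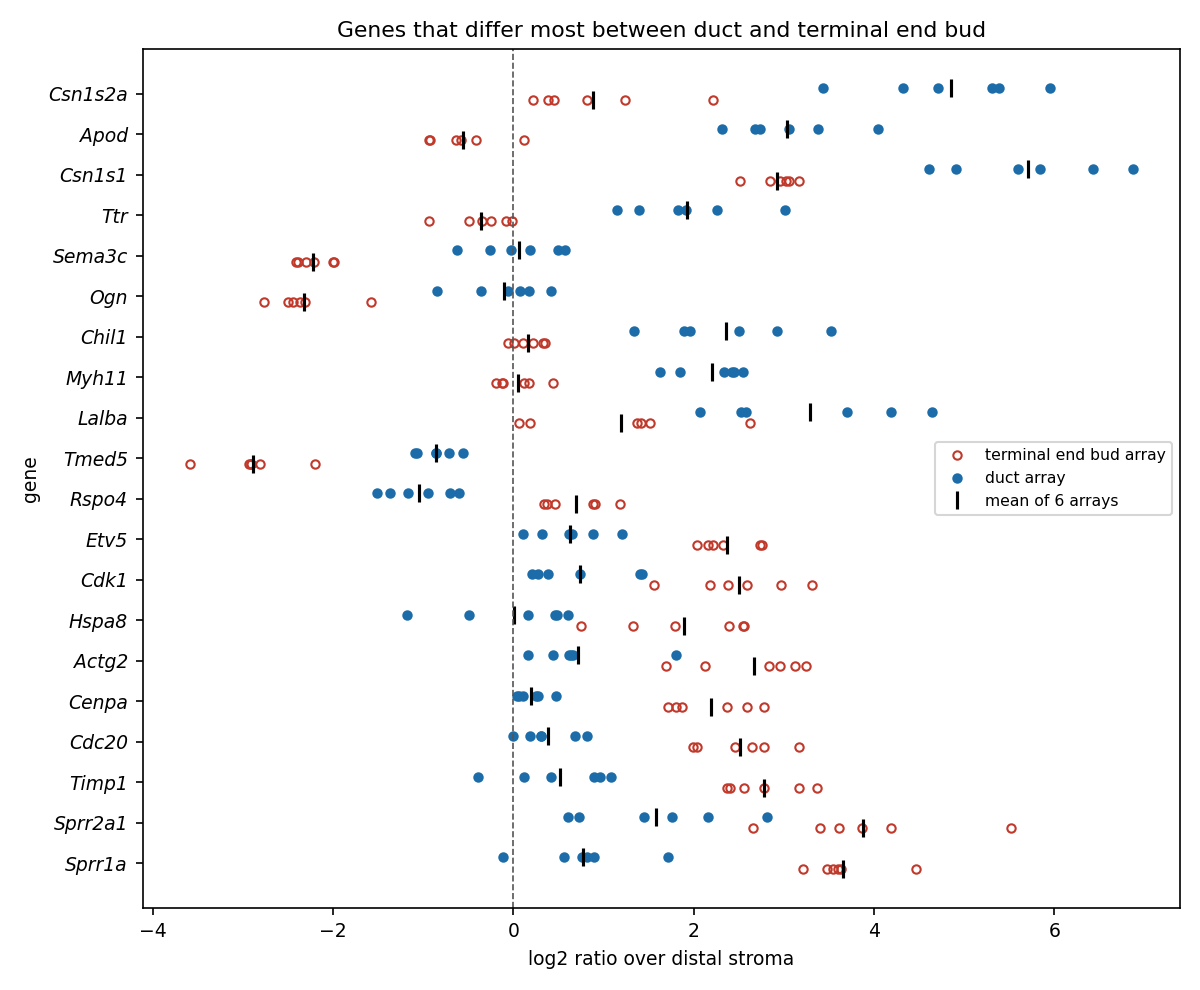
Log2 ratio over distal stroma (horizontal axis) for the 20 genes with the largest called differences between duct and terminal end bud (vertical axis), with filled blue points for the 6 duct arrays, open red points for the 6 terminal end bud arrays and black ticks at their means. Arrays of the structures overlap for Lalba, Sprr2a1 and Actg2. The 20 genes were picked by this difference on the same arrays, so the gap in the others follows largely from the choice.

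Among genes at least 4-fold from stroma, spread between duct arrays was unlike from gene to gene. Lalba had the widest SD, 1.04 (n = 6), followed by Ido1, an enzyme that breaks down tryptophan, at 0.90, Csn1s2a at 0.90 and the fibrinogen chain Fgg at 0.87. The tightest were Aldoc at 0.14, Lsr at 0.15, Tgfb3 at 0.22 and Fgfr2 at 0.24. Ido1 ranged from 0.98 to 3.52 and Fgg from 1.45 to 3.60, so these genes varied by more between arrays of the same structure than many called genes differed from stroma. The probe assigned to Tada1, a subunit of a chromatin complex, gave 5.13 (SE 0.14), an assignment that was not checked.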

How the data were processed

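Each array compared epithelial RNA in Cy5 with stromal RNA in Cy3. The authors deposited normalized log ratios, used here as log2 values of Cy5 over Cy3 as deposited. Scanner, background correction and normalization method were not stated in the labels or headers (not given in the sources used here). Medians of the duct arrays lay between 0.016 and 0.023. The 6 duct arrays were taken by their source label, and replicate numbers follow the order of the records. Of 17589 probes, 31 lacked a value on 1 duct array, and a probe needed values on at least 4 arrays.

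Gene names came from the platform annotation: 14136 probes had 1 symbol, 13 had several and 3440 were unnamed here. Gene numbers of 14029 probes matched the RefSeq table of GRCm38.p6, which updated 0 symbols. A gene was read from the probe with values on most of the 12 arrays, then the first in the table. Of 998 genes with several probes, 14 had probes called in opposite directions.

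Tests used limma 3.58.1 in R 4.3.3 (lmFit and eBayes, two-sided), with Benjamini-Hochberg adjustment over all probes and a threshold of 0.05. Duct was tested as a mean against 0 over 6 arrays, and duct minus terminal end bud as the difference of 2 group means over 12 arrays. Figures were drawn with matplotlib 3.10.9. The members and the 40 gene lists, with 1326 measured members of 1531 written, were chosen with earlier results of these data known, so the lists are described by counts and medians only.

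The rule for named genes took the 12 highest and 12 lowest called genes with the same sign on all arrays, up to 6 called members of a list with the largest ratios and up to 2 called against its direction, the 10 largest differences from terminal end bud in each direction, up to 6 genes at least 2-fold from stroma that did not pass (no gene met this), the 4 widest and 4 tightest genes at least 4-fold from stroma, and a fixed set given whatever it showed. Other list members printed were chosen after their values were seen. On simulated data with 200 changed probes, duct against stroma recovered 66.7%, 97.3% and 100% of changes of 0.5, 1 and 2, with 9 false calls, and duct against terminal end bud 54%, 98.7% and 98.4%, with 5 false calls. The simulation used independent noise for each probe, no dye bias and far fewer changed probes than were called in the data. Its shares therefore need not hold for the real arrays. Alternatives changed the centring, the scaling, the normalization, the probes, the variance model, the weights, the arrays, the minimum size and the probe that stands for a gene. Precision is limited by the number of arrays.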

Additional observations from a re-analysis of the deposited data

Results flagged for a closer look

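Of 301 genes and list medians looked at over the 6 duct arrays, 13 had 1 array far from the other 5 by Dixon's test, and chance alone picks out about 1 in 20 such groups. Duct replicate 2 was the far array in 6 cases, replicates 4 and 5 in 3 each and replicate 6 in 1. On replicate 2, Slc4a4 was at -2.72 while the others lay between -1.57 and -1.04, the heparan sulfate proteoglycan gene Sdc4 at -0.23 while the others were between 1.18 and 1.73, Rps10 at 2.04 against 1.12 to 1.41 and Atp5g1 at 0.99 against 0.38 to 0.56. The median of the FGF, IGF and HGF list was 0.34 on that array and that of S100 proteins and annexins 0.39, against at most 0.20 and 0.07 on the others. On replicate 4, Wap was at -1.60 against 0.08 to 0.81, Fn1 at 0.85 against 1.27 to 1.47 and Slc2a1 at 0.37 against 0.8 to 1.0. On replicate 5, Actg2 was at 1.80 against 0.16 to 0.66, the helicase subunit Mcm6 at 2.05 against 0.42 to 1.02 and the median of the DNA replication list at 0.51 against 0.08 to 0.22. On replicate 6, the matrix protein gene Ccn2 was at 0.59 against 1.15 to 1.32.

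Differences between duct and terminal end bud, tested by limma over 12 arrays, were largest for 20 genes. Those above terminal end bud were Csn1s2a by 3.96, Apod by 3.60, Csn1s1 by 2.78, Ttr by 2.28, Sema3c by 2.28, Ogn by 2.23, Chil1 by 2.20, Myh11 by 2.16, Lalba by 2.09 and Tmed5 by 2.04. Those below had differences of -2.88 for Sprr1a, -2.29 for Sprr2a1, -2.26 for Timp1, -2.13 for Cdc20, -1.99 for Cenpa, -1.94 for Actg2, -1.89 for Hspa8, -1.76 for Cdk1, -1.74 for Etv5 and -1.74 for Rspo4. All 20 kept their direction and their call under the 10 alternatives run for this difference. Being the largest called differences on the same arrays, they were likely to do so from the start.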

How the results depend on the processing

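Leaving out single duct arrays gave 2256 to 2602 probes higher and 1754 to 1973 lower than stroma, with 313 to 335 and 82 to 132 at 2-fold, and 1557 to 1838 higher and 1241 to 1344 lower than terminal end bud. The 2 arrays numbered up to 193 alone gave 1365 higher, 1293 lower and 259 lower at 2-fold, and the 4 from 196 on gave 65 lower at 2-fold. At 2-fold, 179 were lower with arrays scaled to a common spread and 283 after quantile normalization. Testing against a minimum of 1.2-fold left 829 higher and 572 lower. The reason for these moves was not tested. Between duct and terminal end bud, quantile normalization gave 1259 higher and 979 lower. The common spread, chosen after seeing the data, gave 1444 and 1117. Differences of single genes and lists from terminal end bud were also rerun after seeing the data, and Cpt1b turned to -0.04 after quantile normalization. The cause was not tested.

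Of 261 named genes, 0 reversed against stroma under the 18 alternatives. Most of them were picked by their calls on the same arrays, so reversals were unlikely from the start. Calls lost numbered 8 to 13 without 1 array, 69 with the minimum size, 40 on arrays up to 193 and 25 on arrays from 196 on. Medians of 6 lists near 0 reached or crossed 0 under some alternatives: nerve (-0.01 to 0.08), immediate early (-0.01 to 0.11), antioxidant (-0.03 to 0.04), interferon (-0.06 to 0.08), macrophage (-0.19 to 0.15) and skin (-0.04 to 0.01). No paired analysis was made because no label pairs a duct array with a terminal end bud array. Array numbers of the structures are neighbours (190 and 191, for example), and whether neighbours belong together is not stated. The numbers entered only as a term for early against late arrays and in the separate fits of duct arrays up to 193 and from 196 on.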

Other observations

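Of 43 antioxidant and glutathione genes, 9 were higher and 13 lower in duct (median 0.02). Enzymes of mitochondria were among the lower ones, with superoxide dismutase Sod2 at -0.93 and thioredoxin Txn2 at -0.76, while cytosolic thioredoxin Txn1 was higher at 0.69 and the peroxiredoxin of the secretory pathway Prdx4 at 0.70. Of 19 genes of cholesterol synthesis, 7 were lower and 1 higher (median -0.15), with squalene synthase Fdft1 at -0.51. Of 35 immediate early and stress genes, 11 were higher and 3 lower, or 5 lower without duct replicate 6 (median 0.09), and Hspa1b, a heat shock protein, was at 1.78, whereas Fos at 0.40 did not pass. Of 33 genes of interferon response and antigen presentation, 7 were higher and 4 lower (median -0.03), the 7 became 3 without duct replicate 5, and Ifi27 was lowest at -1.13.

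Of 25 S100 proteins and annexins, 7 were higher and 5 lower, or 3 lower without duct replicate 1 (median 0.04), with S100g, a calcium binding protein of epithelia, at 0.69 and S100b, of glia and fat cells, at -0.82. Of 17 nerve and Schwann cell genes, 2 were higher and 2 lower (median 0.06, and 1 lower without duct replicate 1, 2, 3, 5 or 6). The 3440 unnamed probes gave 384 higher and 289 lower calls, with 28 and 17 at 2-fold, the highest at 4.28 and the lowest at -1.65.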
